A study of Rattus norvegicus with 2 samples.

Results

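MHC class I molecules show peptides from inside the cell on its surface, and 8 genes of this pathway, of 25399 genes in the deposited tables, were followed through cells of the rat optic nerve. The genes were taken by symbol: RT1-A1 and RT1-A2, which encode class I heavy chains (RT1 is the rat MHC), B2m, which encodes their shared light chain, and the peptide supply genes Tap1, Tap2, Tapbp, Psmb8 and Psmb9. They were listed after measured values of these same cells were known, with the difference in RT1-A1 between the libraries among them, so all values below are a description and none was tested. The cells came from the optic nerve of WT animals of the Sprague Dawley strain and of Nuc1 animals, which carry a spontaneous insertion in Cryba1, the gene of βA3/A1-crystallin, in all their cells. The sources differ on whether the cells were grown first, since the paper's methods describe mixed glial cultures while the design text tells of nerve that was digested and names no culture. The labels give postnatal day 7 for both groups and no treatment, and each genotype has 1 library, made from 5092 WT cells of 90% viability or 5125 Nuc1 cells of 95% viability. The libraries count UMIs (unique molecular identifiers, each a captured transcript) at the 3′ end. How many rats gave cells to a library is not given in the sources used here.

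In the class I pathway, the proteasome cuts proteins into peptides, and the subunits encoded by Psmb8 and Psmb9 replace constitutive ones in the immunoproteasome. The transporter made of Tap1 and Tap2 carries peptides into the endoplasmic reticulum, where tapasin, the product of Tapbp, holds the empty heavy chain and B2m near the transporter until a peptide binds. Interferons raise transcription of most of these genes, and cells of the healthy nervous system are known for low class I levels.

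The WT library held 34517542 UMIs in 2107 barcodes and the Nuc1 library 35794685 UMIs in 1929 barcodes, of which 1961 and 1780 cells were kept, with medians of 14050 and 16567.5 UMIs. Levels are in CPM, a gene's UMIs for every 1000000 UMIs of the cells summed, with exact 95% intervals that cover counting error only. They are not divided by transcript length, so levels are compared between libraries and cell groups, not between genes. Cryba1 had 0 UMIs in both libraries, so the genotype labels could not be checked from it. Clustering gave 10 clusters, of which 5 were collagen-rich (1743 WT and 1263 Nuc1 cells), cluster 3 was astrocyte-like (105 and 349), cluster 6 was motile-cilia-like (15 and 105) and cluster 9 was macrophage- or microglia-like (23 and 22). Clusters 7 (52 and 10 cells) and 8 (23 and 31 cells) are given by number. The libraries stood apart in composition, since clusters 3, 4 and 6 held 11.5% of the WT UMIs and 48.7% of the Nuc1 UMIs. They also stood apart in sex, since UMIs of the Y-linked genes Eif2s3y or Kdm5d were found in 1 WT cell and in 411 Nuc1 cells. The libraries share 2 cell barcodes.

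The windows around the transcription starts of both heavy chains, of B2m and of Tap1 are shown because RT1-A1 and RT1-A2 differ in what follows while their upstream sequences are near copies, and because B2m and Tap1 are the genes RT1-A1 is set against. Each runs from 250 bases before to 50 bases after the start, from RefSeq on GRCr8, in which all 8 genes were found. RT1-A1 lies on the plus strand at chr20:4906959-4907258, RT1-A2 on the plus strand at chr20:4872621-4872920, B2m on the plus strand at chr3:129549080-129549379 and Tap1 on the minus strand at chr20:4668494-4668793. Capitals mark the core of an interferon regulatory factor site, searched as AANNGAAA on both strands.
RT1-A1: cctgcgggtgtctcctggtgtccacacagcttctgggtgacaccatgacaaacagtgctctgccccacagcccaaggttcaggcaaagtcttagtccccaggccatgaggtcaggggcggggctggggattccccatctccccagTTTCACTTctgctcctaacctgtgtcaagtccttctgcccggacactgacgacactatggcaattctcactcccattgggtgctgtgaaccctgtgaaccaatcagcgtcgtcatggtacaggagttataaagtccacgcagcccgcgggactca
RT1-A2: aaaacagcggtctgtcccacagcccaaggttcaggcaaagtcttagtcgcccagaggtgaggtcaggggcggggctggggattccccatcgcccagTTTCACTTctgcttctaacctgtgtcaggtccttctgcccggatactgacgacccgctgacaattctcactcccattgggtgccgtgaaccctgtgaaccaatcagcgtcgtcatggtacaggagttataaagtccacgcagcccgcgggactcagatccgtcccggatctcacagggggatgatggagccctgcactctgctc
B2m: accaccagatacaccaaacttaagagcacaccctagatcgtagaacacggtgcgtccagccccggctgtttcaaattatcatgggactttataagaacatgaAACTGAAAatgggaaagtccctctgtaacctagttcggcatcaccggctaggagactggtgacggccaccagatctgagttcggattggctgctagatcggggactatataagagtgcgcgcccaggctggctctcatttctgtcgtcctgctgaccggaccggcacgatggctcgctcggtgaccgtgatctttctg
Tap1: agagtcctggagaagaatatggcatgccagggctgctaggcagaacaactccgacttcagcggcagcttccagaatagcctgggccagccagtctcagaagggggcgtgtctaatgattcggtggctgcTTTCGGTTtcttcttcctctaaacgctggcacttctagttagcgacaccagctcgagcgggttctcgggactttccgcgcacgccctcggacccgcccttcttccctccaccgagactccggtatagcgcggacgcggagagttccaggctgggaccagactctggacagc

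This core was found in the windows of 7 of the 8 genes, with the exception of Psmb9, and in 26.4% of all 33469 windows of the same length. The middle of this core lay 102 bases before the start in RT1-A1, 151 in RT1-A2, 145 in B2m and 118 in Tap1. The windows of RT1-A1 and RT1-A2 aligned over 253 columns, of which 235 were identical (92.9%), 13 were mismatches and 5 were gaps. Searched over both strands, the windows of RT1-A1, RT1-A2 and B2m each also held the NF-kB consensus (in 7.51% of all windows), CCAAT (37.5%) and TGACG (21.2%). The NF-kB consensus was found in Tap1 and CCAAT and TGACG were not. Like the core, CCAAT lay nearer the start in RT1-A1 (29 and 5 bases before it) than in RT1-A2 (78 and 54). All distances depend on where the start of each gene is annotated. The windows of Tap1 and Psmb9, which are read in opposite directions, overlap by 44 bases. A match describes the letters of a window only, and no binding was measured.

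RT1-A1 (ENSRNOG00000038999) was counted rarely in WT cells and often in Nuc1 cells. It had 239 UMIs in WT cells (7.07 CPM, 6.20 to 8.02) and 3511 in Nuc1 cells (101 CPM, 98.0 to 105), which is 14.3-fold higher (12.6 to 16.4), or 3.84 on the log2 scale (3.65 to 4.04). Among the 11290 genes with at least 100 UMIs over both libraries, 22 had a higher log2 ratio, and the median of all these genes was -0.0054. Of the 7 listed genes with that many UMIs, RT1-A1 and Psmb8 were at least 2-fold higher in Nuc1 cells and 0 were 2-fold lower, beside 8.13% and 4.58% of all genes. Since the genes were chosen from this contrast, nothing is read from that count.

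The level of RT1-A1 was higher in Nuc1 cells in each of the 10 clusters, and the interval of the log2 ratio lay above 0 in all but clusters 7 and 9. In astrocyte-like cells RT1-A1 had 31 UMIs in WT cells (11.2 CPM) and 1396 in Nuc1 cells (156 CPM), with the log2 ratio at 3.81 (3.29 to 4.37). Past 2-fold, 1 of the 6 listed genes that reached 100 UMIs there was higher in Nuc1 cells (RT1-A1) and 1 was lower (RT1-A2), beside 1.94% and 3.94% of all genes. Motile-cilia-like cells held 8 and 425 UMIs (19.1 and 191 CPM), a log2 ratio of 3.32 (2.33 to 4.54), and cluster 8 held 5 and 56 (10.4 and 88.9 CPM), a log2 ratio of 3.10 (1.79 to 4.78). Collagen-rich cells, which are most cells of both libraries, had 187 and 1626 UMIs (6.42 and 71.7 CPM), a log2 ratio of 3.48 (3.26 to 3.71). There 2 of 7 listed genes were 2-fold higher (RT1-A1 and Psmb8) and 0 were 2-fold lower, beside 4.45% and 3.79% of all genes. Their 5 clusters ran from 2.64 (1.75 to 3.71) in cluster 4, which Inmt and Cyp26b1 lead, to 3.44 (3.05 to 3.84) in cluster 0, where Ccn3 and Rspo3 are among the leading genes. Intervals of the Nuc1 and WT levels overlapped in clusters 7 and 9 and in no other cluster.

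Macrophages and microglia are known for presenting antigen, but the counts of the cells named after them were small. RT1-A1 had 6 UMIs in each library (26.0 CPM, 9.56 to 56.7, and 80.5 CPM, 29.5 to 175), and the interval of the log2 ratio of 1.63 ran from -0.28 to 3.53. In cluster 7 it had 2 UMIs in each library, with a log2 ratio of 2.88 (-0.91 to 6.67). No difference was therefore detectable in either at this depth. For macrophage- or microglia-like cells this depended on how cells were chosen. With a minimum of 200 genes per cell the log2 ratio was 1.91 (0.19 to 3.71) on 6 and 8 UMIs. With cells taken by markers without clustering it was 2.96 (0.62 to 5.17) on 5 and 4 UMIs. That last setting held 12 WT cells and only 1 Nuc1 cell, so its ratio describes that cell and not the group. These 22 Nuc1 macrophage- or microglia-like cells had a median of 1807.5 UMIs, against 8493 in the 23 WT cells, and their summed 10 macrophage markers stood at 5995 CPM, against 16712 CPM, with 0 of the 10 at 0 UMIs in either. The part of depth and of marker level in the values of this group, RT1-A2 and B2m included, was not tested.

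**Figure D1:**
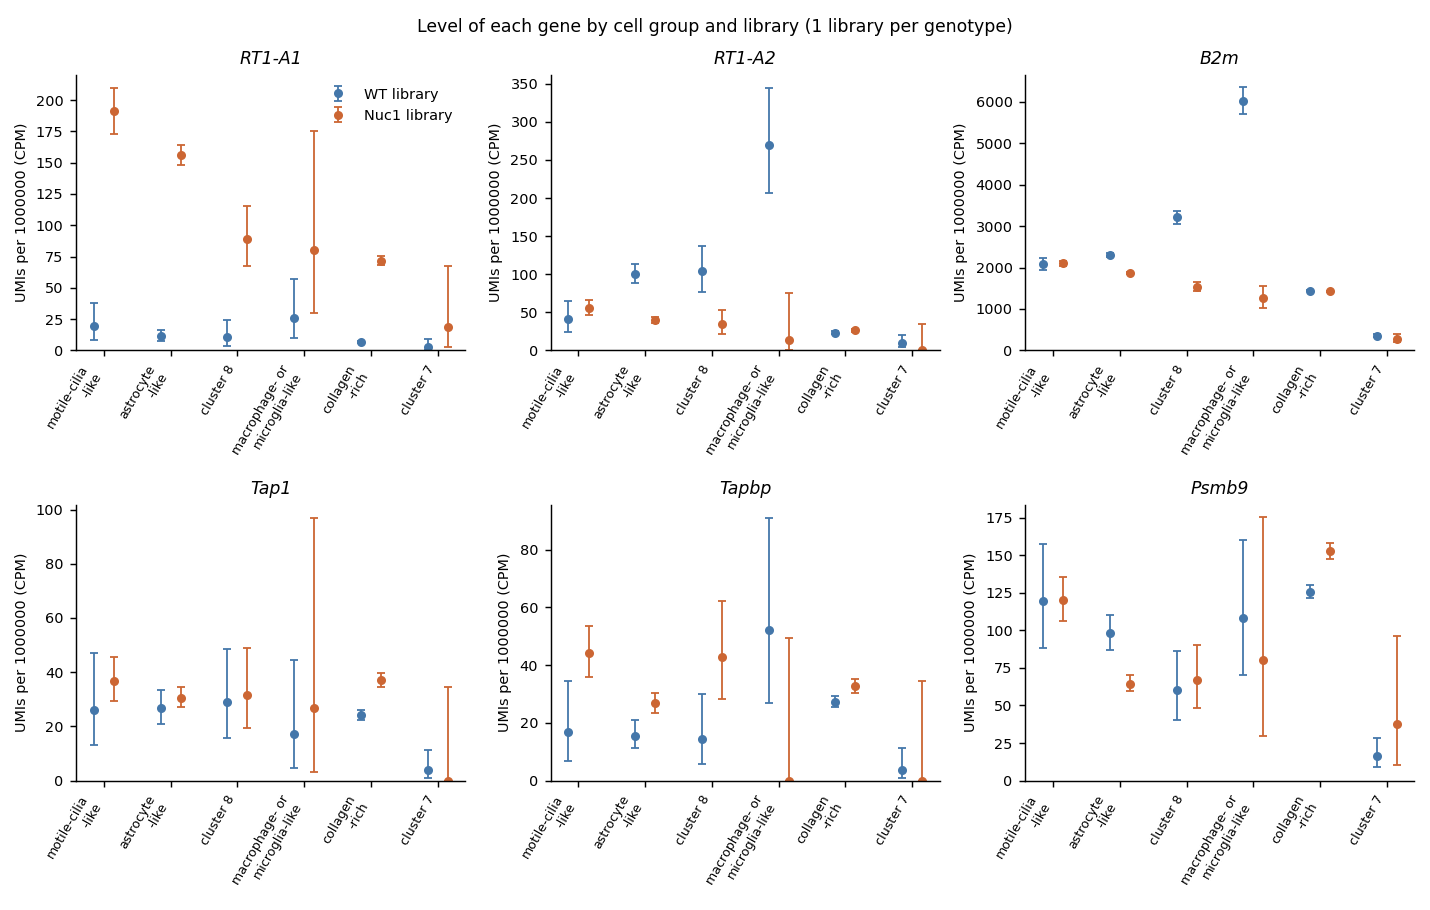
Level of RT1-A1, RT1-A2, B2m, Tap1, Tapbp and Psmb9 in UMIs per 1000000 (CPM, linear axis) in 6 cell groups, with 1 point per library and exact 95% Poisson intervals of counting error. RT1-A1 was higher in Nuc1 cells (orange), with intervals that did not overlap, in motile-cilia-like (191 CPM), astrocyte-like, cluster 8 and collagen-rich cells (71.7 CPM), and its intervals overlapped in macrophage- or microglia-like cells and cluster 7, while RT1-A2 and B2m were highest in WT macrophage- or microglia-like cells, at 269 and 6028 CPM.

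Among the groups, the intervals of RT1-A1 separated only some neighbours in the order of the Nuc1 library, and small groups overlapped widely. In the Nuc1 library RT1-A1 was highest in motile-cilia-like cells (191 CPM, 173 to 210), followed by astrocyte-like cells (156 CPM, 148 to 165), whose intervals did not overlap. Cluster 8, macrophage- or microglia-like and collagen-rich cells followed, and each overlapped its neighbour among these 3. The interval of macrophage- or microglia-like cells (29.5 to 175, on 6 UMIs) also overlapped those of motile-cilia-like and astrocyte-like cells. Cluster 7 was lowest, at 18.7 CPM (2.27 to 67.7) on 2 UMIs, and did not overlap collagen-rich cells (68.3 to 75.3). It did overlap macrophage- or microglia-like cells and cluster 8 (67.2 to 115). In the WT library the levels of neighbouring groups all overlapped, from 26.0 CPM in macrophage- or microglia-like cells down to 2.54 CPM in cluster 7. Groups further apart in that order did separate in part. The interval of WT collagen-rich cells (5.53 to 7.41) lay below those of astrocyte-like (7.58 to 15.8), motile-cilia-like (8.23 to 37.6) and macrophage- or microglia-like cells (9.56 to 56.7).

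RT1-A1 was spread over many cells rather than held by a few. At least 1 UMI was found in 220 of the 1961 WT cells (11.2%), of which none had more than 2, and in 1271 of the 1780 Nuc1 cells (71.4%), with up to 18 in a cell. When each cell was thinned to 5000 UMIs, which left out 28 WT and 40 Nuc1 cells that were shallower, the shares were 4.19% (3.34 to 5.18) of 1933 WT cells and 36.5% (34.2 to 38.8) of 1740 Nuc1 cells. Of the thinned astrocyte-like cells, 8.57% of the WT cells (3.99 to 15.6) and 52.9% of the Nuc1 cells (47.5 to 58.3) had an RT1-A1 UMI. Of the thinned collagen-rich cells it was 3.82% (2.97 to 4.84) and 30.1% (27.6 to 32.7). No cell type that should lack class I is known here, so free RNA was read from other genes. Tyrobp, a macrophage gene, was found in 0.463% of thinned collagen-rich WT cells and in 0.239% of Nuc1 cells, and Gfap, an astrocyte gene, in 2.84% and 9.16%. The part of free RNA in the RT1-A1 shares was not tested.

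**Figure D2:**
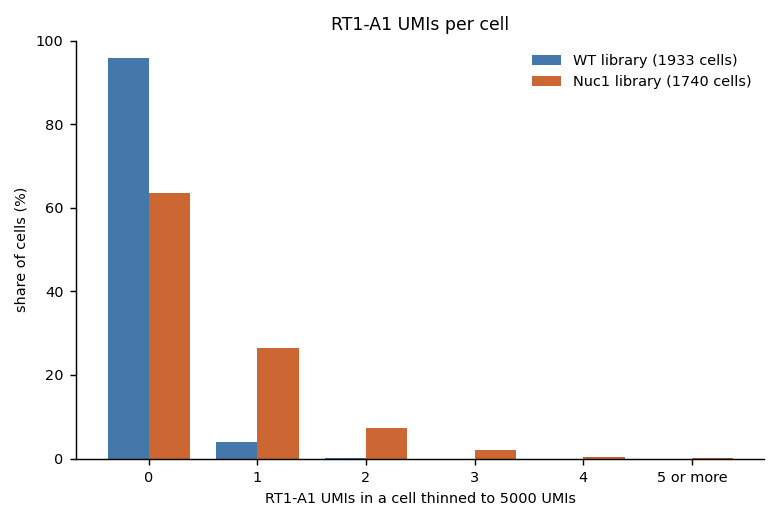
Share of cells (%, vertical axis from 0) by the number of RT1-A1 UMIs per cell after thinning each cell to 5000 UMIs, in 1933 WT and 1740 Nuc1 cells. Of the WT cells 95.8% had no UMI and none had more than 2, while 63.5% of the Nuc1 cells had none, 26.5% had 1 and 7.30% had 2.

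Cells with Y-linked UMIs came almost wholly from the Nuc1 library, so RT1-A1 was also read with and without them. The 411 Nuc1 cells with a UMI of Eif2s3y or Kdm5d had RT1-A1 at 97.4 CPM (91.0 to 104), and the 1369 cells with neither had it at 103 CPM (98.8 to 107), with overlapping intervals. When all cells with such a UMI were left out, the log2 ratio between the libraries was 3.86.

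RT1-A2 (ENSRNOG00000030712), whose window around the start is a near copy of that of RT1-A1, did not share the difference. It had 1092 UMIs in WT cells (32.3 CPM, 30.4 to 34.3) and 1090 in Nuc1 cells (31.5 CPM, 29.6 to 33.4), a log2 ratio of -0.04 (-0.16 to 0.08). For every 100 UMIs of RT1-A2 there were 21.9 of RT1-A1 in WT cells and 322 in Nuc1 cells, and the log2 ratios of both genes differed by 3.88 (3.65 to 4.11). In thinned cells RT1-A2 was found in 14.0% of WT and 13.5% of Nuc1 cells. Whether a cell had RT1-A1 moved its share little: RT1-A2 was found in 14.8% of WT cells with RT1-A1 and 13.9% without, and in 15.4% and 12.4% of Nuc1 cells.

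Within cell groups RT1-A2 ran in both directions. In astrocyte-like cells it was lower in the Nuc1 library, with 279 and 353 UMIs (100 CPM, 89.0 to 113, and 39.5 CPM, 35.5 to 43.8), a log2 ratio of -1.35 (-1.58 to -1.12), and the share of thinned cells with a UMI was 44.8% against 20.6%. The median log2 ratio of all 7585 genes in these cells was -0.11. In cluster 8 it had 50 and 22 UMIs and a log2 ratio of -1.57 (-2.36 to -0.82), and in macrophage- or microglia-like cells 62 and 1 UMIs and a log2 ratio of -4.33 (-9.65 to -1.79). Collagen-rich cells had 676 and 591 UMIs (23.2 and 26.1 CPM) and a log2 ratio of 0.17 (0.01 to 0.33), and motile-cilia-like cells 17 and 123 UMIs, 0.45 (-0.29 to 1.27). RT1-A1 and RT1-A2 therefore stood in opposite order in the astrocyte-like cells of the libraries, and their sum there was 112 CPM in WT and 196 CPM in Nuc1 cells.

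B2m (ENSRNOG00000017123) was counted in nearly every cell and hardly differed over all cells. The WT library held 52303 UMIs (1547 CPM, 1534 to 1560) and the Nuc1 library 54834 (1583 CPM, 1570 to 1596), a log2 ratio of 0.03 (0.02 to 0.05), and in thinned cells 98.6% and 98.8% had a UMI. For every 1000 UMIs of B2m there were 4.57 of RT1-A1 in WT cells and 64.0 in Nuc1 cells, so that the log2 ratio of RT1-A1 exceeded that of B2m by 3.81 (3.62 to 4.004). In astrocyte-like cells the excess was 4.10 (3.59 at its lower bound) and in motile-cilia-like cells 3.31 (2.31 at its lower bound).

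Inside the clusters the B2m level was lower in Nuc1 cells in 9 of 10, of which cluster 7, at -0.34 (-0.93 to 0.21), had an interval that held 0. In the collagen-rich clusters the log2 ratio was -0.66 in cluster 0, -0.15 in cluster 1, -0.54 in cluster 2, -0.33 in cluster 4 and -0.27 in cluster 5, although over the 5 together it was -0.01 (-0.03 to 0.01). Cluster 4 had the highest B2m level of the 5 in both libraries (3225 and 2562 CPM) and held 2.06% of the WT UMIs but 16.5% of the Nuc1 UMIs. Astrocyte-like cells had 2302 CPM in WT and 1872 CPM in Nuc1 cells, with the log2 ratio at -0.30 (-0.34 to -0.26). Cluster 8 had a log2 ratio of -1.06 (-1.18 to -0.94), and macrophage- or microglia-like cells, with 6028 and 1261 CPM, one of -2.26 (-2.57 to -1.96). Motile-cilia-like cells alone had a ratio above 0, at 0.01 (-0.09 to 0.12). With the clusters weighted in both libraries as in the WT library, the B2m level was 1547 CPM in WT and 1175 CPM in Nuc1 cells, a log2 ratio of -0.40, and that of RT1-A1 was 3.39.

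**Figure D3:**
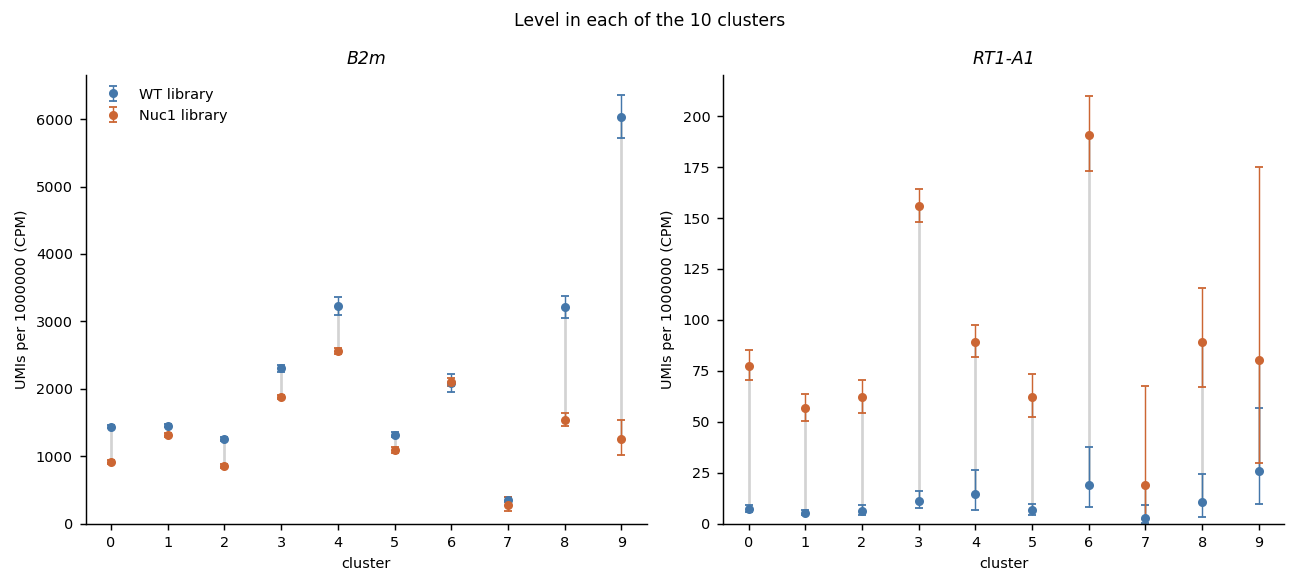
Level of B2m (left) and RT1-A1 (right) in UMIs per 1000000 (CPM, linear axes from 0) in each of the 10 clusters, with 1 point per library, exact 95% Poisson intervals and a grey line joining the libraries. Clusters 0, 1, 2, 4 and 5 are collagen-rich, 3 is astrocyte-like, 6 is motile-cilia-like and 9 is macrophage- or microglia-like. The B2m level was lower in Nuc1 cells in 9 of 10 clusters and that of RT1-A1 higher in 10 of 10, with overlapping RT1-A1 intervals in clusters 7 and 9.

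The peptide supply genes with UMIs differed by less than RT1-A1, and Psmb8 came nearest to it. Tap1 (ENSRNOG00000000457), a subunit of the peptide transporter, had 812 and 1216 UMIs (24.0 CPM, 22.4 to 25.7, and 35.1 CPM, 33.2 to 37.1), a log2 ratio of 0.55 (0.42 to 0.68). Tapbp (ENSRNOG00000029500), which encodes tapasin, had 868 and 1106 UMIs (25.7 and 31.9 CPM), a log2 ratio of 0.31 (0.19 to 0.44). Psmb9 (ENSRNOG00000000459), an immunoproteasome subunit, had 4052 and 4356 UMIs (120 and 126 CPM), a log2 ratio of 0.07 (0.01 to 0.13). Psmb8 (ENSRNOG00000000456), another such subunit, had only 31 and 115 UMIs (0.92 and 3.32 CPM), a log2 ratio of 1.86 (1.27 to 2.48), spread over 30 WT and 112 Nuc1 cells. In cells thinned to 5000 UMIs, where 7 and 43 UMIs of Psmb8 were left, its log2 ratio was 2.77 (1.61 to 4.17). This interval overlapped that of RT1-A1 in thinned cells, at 3.52 (3.20 to 3.87). RT1-A1 exceeded Psmb8 by 1.99 (1.33 to 2.60) over all cells and by 1.43 (0.71 to 2.11) in collagen-rich cells. In motile-cilia-like cells, with 1 and 9 UMIs of Psmb8, the interval of the excess held 0 (-3.06 to 5.72). Tap2 (ENSRNOG00000046031), the transporter's partner subunit, had 0 UMIs in both libraries, with the upper bound of the exact interval at 0.109 CPM in WT and 0.106 CPM in Nuc1 cells.

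Summed, these 5 genes had 5763 UMIs in WT cells (170 CPM) and 6793 in Nuc1 cells (196 CPM), with the log2 ratio at 0.20 (0.15 to 0.25). Most of these UMIs were of Psmb9 (4052 and 4356). RT1-A1 exceeded this sum by 3.64 (3.44 to 3.84) on the log2 scale. Its excess over single genes was 3.77 for Psmb9, 3.53 for Tapbp, 3.29 for Tap1 and 1.99 for Psmb8. By cell group the sum was higher in collagen-rich Nuc1 cells, at 0.34 (0.29 to 0.40), and lower in astrocyte-like Nuc1 cells, at -0.19 (-0.36 to -0.02), where the median of all genes was -0.11. Psmb9 showed the same opposition, with 0.28 (0.21 to 0.35) in collagen-rich cells and -0.60 (-0.81 to -0.39) in astrocyte-like cells. Tapbp instead was higher in the Nuc1 library in astrocyte-like cells, at 0.79 (0.31 to 1.29), in motile-cilia-like cells, at 1.40 (0.30 to 2.75), and in cluster 8, at 1.56 (0.33 to 3.01). Tap1 was 0.61 (0.46 to 0.76) in collagen-rich cells and 0.20 (-0.17 to 0.59) in astrocyte-like cells. Levels in cluster 7 were low, at 16.5 CPM for Psmb9 and 3.82 CPM for Tap1 in WT cells.

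**Figure D4:**
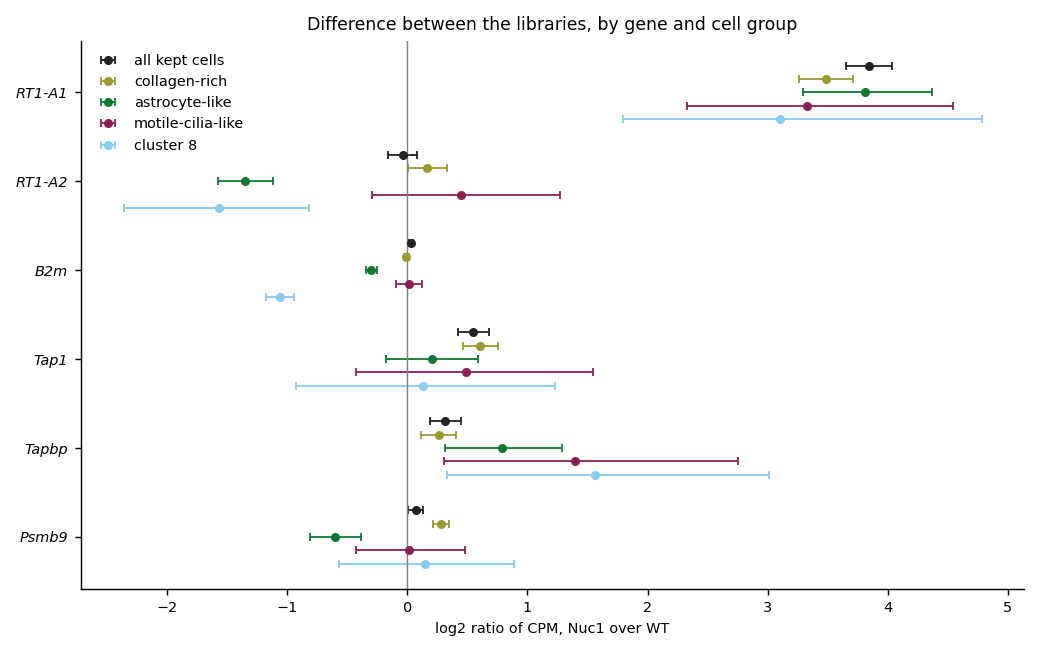
Log2 ratio of CPM, Nuc1 over WT (horizontal axis), for RT1-A1, RT1-A2, B2m, Tap1, Tapbp and Psmb9 over all kept cells and in 4 cell groups, with exact conditional 95% intervals of counting error. RT1-A1 lies between 3.10 and 3.84, while the other genes lie between -1.57 and 1.56.

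RT1-A1 belongs to a family of near copies, and counting can split or drop reads that fit several of them, so each of these genes is uncertain alone. Class I sequences also vary between rat colonies, and a difference in level and a difference in how well the reads of either colony match the reference gene cannot be told apart in these counts. Of 21 RT1 class I symbols, 15 had a UMI, 6 had none, and 9 had at least 100 over both libraries. Summed, they had 8676 UMIs in WT cells (257 CPM) and 19566 in Nuc1 cells (565 CPM), with the log2 ratio at 1.14 (1.10 to 1.17). Without RT1-A1 the log2 ratio of the sum was 0.89 (0.86 to 0.93). RT1-A1 made up 2.75% of the class I UMIs in WT cells and 17.9% in Nuc1 cells.

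Besides RT1-A1, RT1-CE4 was the only other of these 9 genes that was at least 2-fold higher in Nuc1 cells, and 0 were 2-fold lower. Over all genes these shares were 8.13% and 4.58%, and nothing is read from the count. RT1-CE4 had 1882 and 6999 UMIs (55.7 and 202 CPM) and a log2 ratio of 1.86 (1.79 to 1.93). RT1-CE5 stood at 0.90, RT1-S3 at 0.63, RT1-CE10 at 0.62 and RT1-M3-1 at 0.40, with intervals above 0. RT1-N3 stood at -0.59, with its interval below 0, and the intervals of RT1-A2 and of RT1-T24-4, at -0.08, held 0. RT1-CE4 was higher in the Nuc1 library in astrocyte-like cells (97.9 and 301 CPM), in motile-cilia-like cells (57.2 and 379 CPM) and in collagen-rich cells (50.8 and 145 CPM). RT1-CE10 shared the opposition seen for RT1-A2, with -0.90 (-1.02 to -0.78) in astrocyte-like cells and 0.86 (0.75 to 0.97) in collagen-rich cells. In astrocyte-like cells the class I genes other than RT1-A1 summed to 651 CPM in WT and 656 CPM in Nuc1 cells, with the log2 ratio at 0.01 (-0.06 to 0.09).

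**Figure D5:**
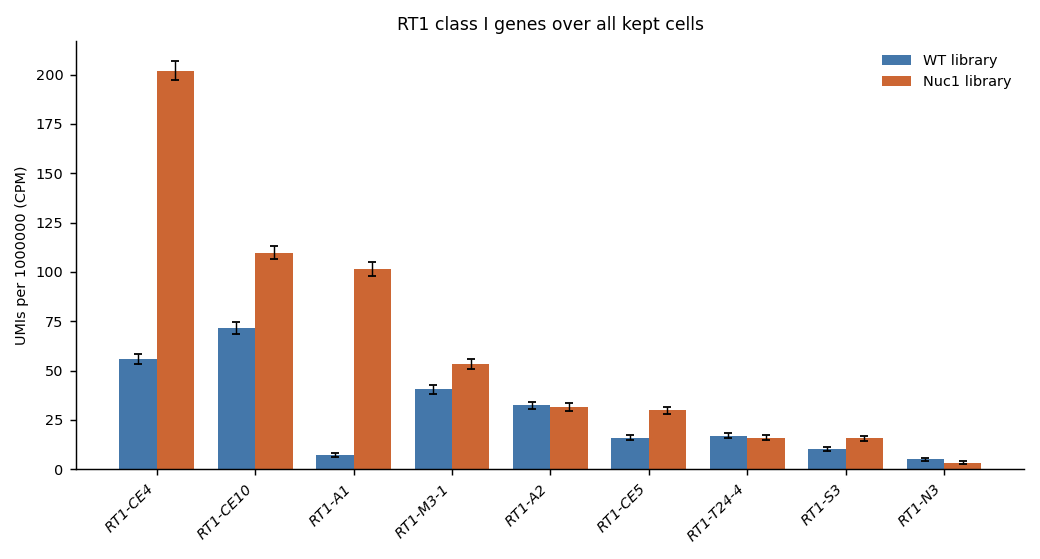
Level in UMIs per 1000000 (CPM, linear axis from 0) of the 9 RT1 class I genes with at least 100 UMIs, over all kept cells of each library, with exact 95% Poisson intervals. RT1-A1 stood at 7.07 CPM in WT and 101 CPM in Nuc1 cells and RT1-CE4 at 55.7 and 202 CPM, and RT1-A2 at 32.3 and 31.5 CPM.

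Other genes of the pathway were read from lists and are given beside the background of 12.7% of all genes that were 2-fold different in either direction. Of 13 further antigen processing genes, among them the chaperones calreticulin and calnexin and the peptidase gene Erap1, 12 had at least 100 UMIs and their median log2 ratio was 0.0003. Mr1, which encodes a class I-like molecule that shows vitamin metabolites to T cells, was the 1 gene past 2-fold, with 71 and 217 UMIs and a log2 ratio of 1.58 (1.18 to 1.98). Of its Nuc1 UMIs, 134 lay in motile-cilia-like cells, of which there were 105 in the Nuc1 and 15 in the WT library. These cells held 8 Mr1 UMIs of 419445 in the WT and 134 of 2225610 in the Nuc1 library. Collagen-rich cells held 61 and 55 and astrocyte-like cells 2 and 28. The part of composition in the ratio was not tested. All 14 constitutive proteasome genes lay between -0.20 and 0.25, with a median of -0.07.

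Interferon response genes, 18 of 20 with at least 100 UMIs, ran from -0.80 to 3.36 with a median of 0.31, and 3 were at least 2-fold higher in Nuc1 cells. Ifit2, which encodes an RNA-binding antiviral protein, had 189 UMIs in WT and 415 in Nuc1 cells, or 1.10 (0.85 to 1.36) on the log2 scale. In collagen-rich cells Ifit2 stood at 1.38 (1.10 to 1.66), with 164 and 332 UMIs, and in astrocyte-like cells at -0.35 (-1.19 to 0.56), with 17 and 43. Of its 36 Nuc1 UMIs in motile-cilia-like cells, 1 cell held 20. Gbp5, which encodes a guanylate-binding protein, was counted 52 times in WT and 161 times in Nuc1 cells, with the log2 ratio at 1.60 (1.14 to 2.08). Inside the groups with most of its UMIs the ratio of Gbp5 was smaller and each interval held 0, at 0.75 (-0.01 to 1.59) in astrocyte-like, 0.43 (-0.80 to 1.96) in motile-cilia-like and 0.49 (-0.43 to 1.42) in collagen-rich cells. Astrocyte-like and motile-cilia-like cells, which were more numerous in the Nuc1 library, held 92 and 43 of its 161 Nuc1 UMIs. Rsad2, which encodes the antiviral enzyme viperin, had 16 and 168 UMIs, or 3.36 (2.62 to 4.20) on the log2 scale, but these lay in 9 WT and 31 Nuc1 cells, of which 1 motile-cilia-like cell held 55. The interferon genes Ifng and Ifnb1 had 0 UMIs in both libraries, and the 4 receptor genes lay between -0.59 and 0.39. Of 8 lymphocyte markers, 7 were in the table, and they summed to 1 UMI in WT and 2 in Nuc1 cells. Of 12 MHC class II genes, Cd74, the invariant chain, alone had 100 UMIs, with 141 and 618 and a log2 ratio of 2.10 (1.83 to 2.37), and 132 and 610 of them lay in collagen-rich cells.

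The genes most like RT1-A1 over the 20 points of 10 clusters in both libraries were RT1-CE4 (Pearson's r of log2(CPM + 1) of 0.90), Eif2s3y (0.89), Vps28 (0.82), Ddx3 (0.81) and Kdm5d (0.80). Eif2s3y, Ddx3 and Kdm5d had 3, 0 and 0 UMIs in WT cells and 896, 291 and 204 in Nuc1 cells. RT1-A1 itself had an r of 0.16 with B2m and 0.11 with RT1-A2. These points mix clusters and libraries, and over all cells only RT1-A1 of these genes differed widely between the libraries. Neither r therefore shows whether RT1-A1 follows B2m or RT1-A2 across groups within a library. In the Nuc1 library these genes were all highest in motile-cilia-like cells, followed by astrocyte-like cells. In the WT library all were highest in macrophage- or microglia-like cells, and RT1-A1 differed in the order of the next groups. Most like B2m were Cd164 (0.92), Ctsh (0.91), RT1-A2 (0.90), Cyp4f6 (0.90) and RT1-S3 (0.89), and most like Tap1 were Ifi35 (0.96), Abhd14b (0.96), Anxa1 (0.95), Cavin1 (0.94) and Pls3 (0.94). The points share 2 libraries and differ in depth, so these values describe the clusters and carry no test.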

How the data were processed

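Per the labels, cells of 2 libraries (1 WT, 1 Nuc1) were captured with a droplet-based 3′ kit with a target of 3000 cells. The authors used Cell Ranger 3.1.0 and STAR 2.7 and deposited raw UMI counts per gene and barcode, without normalization. The genome build is not given in the sources used here. Cells were kept from 500 genes upwards if mitochondrial UMIs were not over 20%, and Scrublet (scanpy 1.11.5) removed 7 WT and 13 Nuc1 doublets, fewer than the expected 2%, so doublets can remain. Libraries were integrated and clustered in Seurat 5.3.0 (2000 variable genes, 30 components, resolution 0.5), and clusters were named from marker lists. Cluster 7 is left without a name. Of the symbols, 99 occur more than once. Counts were summed per library and cell group. Intervals at 95% are exact conditional for ratios, exact Poisson for levels and Clopper-Pearson for shares. A count of 0 is given the upper bound of the same exact Poisson interval. No p-value was computed, since 1 library per genotype allows none. Genes named are the 8 members, RT1 class I genes with at least 100 UMIs, list genes past 2-fold, and the 5 most alike of RT1-A1, B2m and Tap1. Members and lists were chosen with earlier results of these data known. The intervals and directions of ratios were checked on simulated counts that held counting error only. Filtering, clustering, naming and thinning were not checked in this way. Alternatives, with edgeR 4.0.16 for TMM scaling, follow in the closing section, and 2 of them, leaving out cells with Y-linked UMIs and weighting clusters alike, were added after the data were seen.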

Additional observations from a re-analysis of the deposited data

Results flagged for a closer look

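Effects that pointed in opposite directions in collagen-rich cells and in another group were found for RT1-A2 and Psmb9, and none of these differences was tested, as each genotype has 1 library. The log2 ratio of RT1-A2, Nuc1 over WT, was 0.17 in collagen-rich and -1.35 in astrocyte-like cells, a difference of 1.51. Against the -4.33 of macrophage- or microglia-like cells, which rests on 62 WT UMIs and 1 Nuc1 UMI, the difference was 4.49, and against the -1.57 of cluster 8 it was 1.74. For Psmb9 the ratio was 0.28 in collagen-rich and -0.60 in astrocyte-like cells, a difference of 0.88.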

How the results depend on the processing

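RT1-A1 stayed higher in the Nuc1 library under all 9 alternatives run over all cells, and its log2 ratio lay between 3.39 and 4.01 where the scale was log2. In collagen-rich cells it lay between 3.28 and 3.69, in astrocyte-like cells between 3.05 and 4.13 and in macrophage- or microglia-like cells between 1.21 and 2.96. In these last cells the interval lay above 0 with a minimum of 200 genes (1.91, 0.19 to 3.71) and with markers in place of clusters (2.96, 0.62 to 5.17). The marker setting held only 1 Nuc1 cell of this kind, so its interval does not describe the group. Otherwise the interval held 0 on the log2 scale. With at most 10% mitochondrial UMIs the ratios were 0.29 for RT1-A2, 0.12 for B2m and 0.26 for the summed peptide supply genes. In cells thinned to 5000 UMIs they were 3.52 for RT1-A1, 0.0095 for B2m, whose interval of -0.02 to 0.04 held 0, 0.26 for the summed supply genes and 3.05 for RT1-A1 in astrocyte-like cells, Psmb8 stood at 2.77, and RT1-A1 exceeded B2m by 3.51 and the supply genes by 3.27. Differences of mean log-normalized values, on a natural log scale and so not comparable in size, were 0.52 for RT1-A1, 0.42 for it in collagen-rich and 0.79 in astrocyte-like cells, 0.086 for the supply genes and -0.043 for B2m, whose direction reversed. With clusters weighted in both libraries as in the WT library, the ratios were 3.39 for RT1-A1, -0.37 for RT1-A2, -0.40 for B2m, which reversed, and 0.33 for the supply genes. B2m was lower in 9 of 10 clusters, and the cause of the other shifts was not tested. TMM scaling moved all log2 ratios by -0.01 over all cells, 0.17 in astrocyte-like and -0.42 in macrophage- or microglia-like cells. At a resolution of 0.2 no cluster was macrophage- or microglia-like, so that setting gave no value for it, and without integration 748 Nuc1 cells fell in unnamed clusters. No paired analysis was possible because there is only 1 library of each genotype. Depth limits Psmb8, with 31 WT UMIs, and all values of macrophage- or microglia-like cells and cluster 7. Tap2 had 0 UMIs in both libraries, and the cause was not tested.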
